A study of Brachypodium distachyon with 12 samples.

Results

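Copper amine oxidases are enzymes that use a copper ion and a cofactor built from one of their own tyrosines to oxidise primary amines. Each reaction releases an aldehyde, ammonia and hydrogen peroxide. In plants the usual substrates are the diamine putrescine and the polyamine spermidine, and some family members also accept aromatic amines such as tyramine or dopamine. The family has been tied to cell wall stiffening, to root vascular development and to responses to wounding, mostly in Arabidopsis and in legumes.

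The 3 genes described here were taken by identifier from the deposited count table of the grass Brachypodium distachyon. BdiBd21-3.5G0057900 and BdiBd21-3.1G0313900 are described there as primary amine oxidases and BdiBd21-3.5G0170100 as a copper methylamine oxidase. They are 3 of 39068 genes in the table and 3 of 6 whose name or domain text mentions such an enzyme. All 3 passed the filter on low counts. The list was selected on values of the same 12 count columns, without a stated criterion, so levels and differences of the 3 genes are given as a description, with no p-value. A name in the table is the best sequence match and no substrate was measured.

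The libraries came from wild-type (WT) plants of line Bd21-3, with no mutant, transgene or treated group. Seedlings were grown hydroponically in MS medium, and whole roots and shoots were taken at week 2 and week 4. Each organ at each age makes a group, which gives 4 groups of 3 libraries. The protocol states that the replicates came from different plants. The series title names dopamine biosynthesis in plants, and amine oxidases act on the products of the decarboxylases that make such amines.

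Total counts per library ranged from 17261299 to 24186744. The summed level of 27 genes described as chlorophyll a-b binding proteins, which harvest light in leaves, was 63228.5 to 86379 counts per 1e+06 (CPM) in shoots. The same sum was 1118.85 to 2299.38 CPM in week 2 roots and 6411.17 to 7331.94 CPM in week 4 roots. No root library overlapped a shoot library, and week 4 roots lay above week 2 roots. Organs at the 2 ages came from different plants, so plant age cannot be told apart from anything else that differed between harvests.

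The 3 genes had 3 different patterns. BdiBd21-3.5G0057900 was a shoot transcript, with mean levels of 86.5 and 124 CPM in week 2 and week 4 shoots against 2.45 and 1.60 CPM in roots. BdiBd21-3.5G0170100 was detected at 35.2 CPM or more in every library and was higher in roots at each age. BdiBd21-3.1G0313900 was low everywhere, at 5.43 to 6.42 CPM in 3 of the groups and 2.22 CPM in week 4 roots. These are whole organs, so fewer cells of a type and less RNA per cell cannot be told apart.

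**Figure D1:**
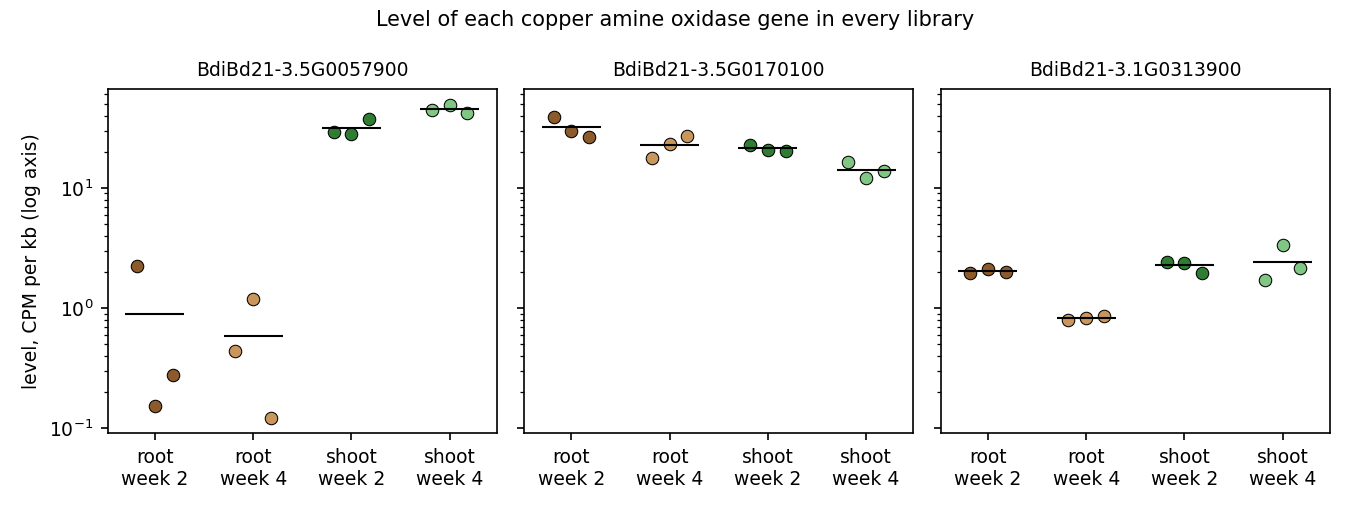
Level of each of the 3 copper amine oxidase genes, in CPM per kb of gene length on a log axis, for each of 12 libraries in 4 groups; each point is 1 library and each line is the group mean. BdiBd21-3.5G0057900 separates shoots from roots, with group means of 31.6 and 45.1 against 0.893 and 0.585 CPM per kb, and its root libraries are scattered.

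BdiBd21-3.5G0057900 lies on the plus strand of chromosome 5 at 5286638 to 5292601, in the coordinates of the deposited table, whose build is not named. Its gene length in the table is 2741 bases. Its domain text lists both amino-terminal copper amine oxidase domains, N2 and N3, and the enzyme domain that carries the active site. It received 12587 counts over all libraries.

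In week 2 shoots BdiBd21-3.5G0057900 was at 79.7, 77.5 and 102 CPM in replicates 1, 2 and 3. In week 4 shoots it was at 121, 135 and 115 CPM. In week 2 roots the values were 6.16, 0.422 and 0.760 CPM, from 141, 11 and 15 counts. Replicate 1 held most of the week 2 root signal. In week 4 roots BdiBd21-3.5G0057900 was at 1.20, 3.27 and 0.337 CPM, from 29, 87 and 8 counts. Every shoot library was above every root library, and the root libraries of the 2 ages overlapped.

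At week 2 the level of BdiBd21-3.5G0057900 was 35.2-fold lower in roots than in shoots, a log2 fold change of -5.14 with a standard error (SE) of 0.87. At week 4 it was 75.6-fold lower, at -6.24 (SE 0.92). The root replicates set the size of both values. Without week 2 root replicate 1 the first became -7.22, and without week 4 root replicate 2 the second became -7.31. The chlorophyll a-b binding sum was lowest of all 12 libraries in week 2 root replicate 1, at 1118.85 CPM, the root library in which BdiBd21-3.5G0057900 was highest. The cause of the high value in that library was not tested.

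With age, BdiBd21-3.5G0057900 averaged 86.5 ± 13.7 CPM (SD, n = 3) in week 2 shoots and 124 ± 10.5 CPM (SD, n = 3) in week 4 shoots. The 2 shoot groups did not overlap. The log2 fold change was 0.52 (SE 0.70), and 0.50 in a fit of the shoot libraries alone. The fit of all 12 libraries takes its estimate of spread for a gene from roots and shoots together. In roots the change with age was -0.59 (SE 0.90), and without week 2 root replicate 1 it turned to 1.50. The highest root library exceeded the lowest by 18.3-fold, against 1.74-fold among shoot libraries.

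BdiBd21-3.5G0170100 lies on the minus strand of chromosome 5 at 17182017 to 17189000, with a gene length of 2931 bases. Its domain text lists the N3 and the enzyme domain and no N2 domain. It had the most counts of the 3, 17533 in all. In week 2 roots it was at 115, 88.0 and 77.7 CPM. In week 4 roots it was at 52.0, 67.6 and 78.7 CPM. Roots at the 2 ages overlapped.

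In week 2 shoots BdiBd21-3.5G0170100 was at 66.5, 60.9 and 59.7 CPM. In week 4 shoots it was at 48.6, 35.2 and 40.2 CPM. The shoot groups did not overlap each other, and at each age all 3 root libraries were above all 3 shoot libraries. The group means in falling order were 93.4 ± 19.0 CPM for roots at week 2 and 66.1 ± 13.4 CPM for roots at week 4, then 62.4 ± 3.64 CPM for younger and 41.3 ± 6.77 CPM for older shoots (SD, n = 3 each). Week 4 roots and week 2 shoots, neighbours in that order, overlapped.

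The root level of BdiBd21-3.5G0170100 was 1.50-fold the shoot level at week 2, a log2 fold change of 0.58 (SE 0.18), and 1.60-fold at week 4, at 0.68 (SE 0.18). From week 2 to week 4 the log2 fold change was -0.59 (SE 0.18) in shoots and -0.50 (SE 0.18) in roots. The changes with age in roots and shoots differed by 0.09 (SE 0.25).

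BdiBd21-3.5G0170100 shares 1151 bases with BdiBd21-3.5G0170000, a gene on the opposite strand whose 3′ end runs into its own. The protocol does not say whether the libraries kept the strand, so reads from the shared bases cannot be told apart. BdiBd21-3.5G0170000 is described as an F-box protein, a class of substrate-binding subunits of ubiquitin ligases, and its domain text also lists a copper amine oxidase enzyme domain and a Sel1 repeat. It lies at 17177873 to 17183167 on chromosome 5, its gene length is 4254 bases, and 4936 counts were assigned to it.

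In root against shoot the overlapping gene had the opposite sign. BdiBd21-3.5G0170000 averaged 13.2 CPM in week 2 roots and 16.8 CPM in week 4 roots, and 19.6 and 27.7 CPM in week 2 and week 4 shoots. It was lower in roots at week 2 (log2 fold change -0.56, SE 0.16, edgeR adjusted p 0.0106) and at week 4 (-0.72, SE 0.16, edgeR adjusted p 0.00214). In shoots it rose with age by 0.50 (SE 0.16, edgeR adjusted p 0.0319), which no longer passed 0.05 without any 1 of the 3 week 2 shoot libraries or without week 4 shoot replicate 2 or 3, with adjusted p up to 0.152. Per length, the level of BdiBd21-3.5G0170100 over that of BdiBd21-3.5G0170000 was 10.6 ± 3.71 and 5.66 ± 0.727 in roots at weeks 2 and 4, and 4.66 ± 0.699 and 2.26 ± 0.811 in shoots (SD, n = 3 each).

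**Figure D2:**
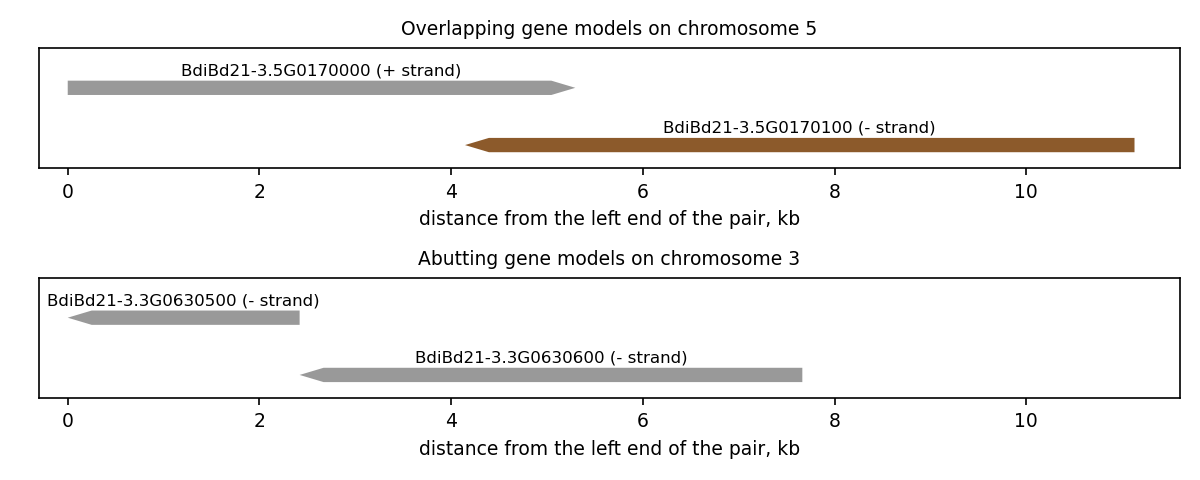
Positions of 2 pairs of neighbouring gene models, as distance in kb from the left end of each pair; arrows point in the direction of transcription, brown marks BdiBd21-3.5G0170100 and grey marks genes outside the 3 described. The 3′ ends of the chromosome 5 pair share 1151 bases, and the chromosome 3 pair abuts with 0 bases between.

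BdiBd21-3.1G0313900 lies on the minus strand of chromosome 1 at 19611717 to 19616339, with a gene length of 2678 bases and the N2, N3 and enzyme domains. It had 1268 counts in all. In week 2 roots it was at 5.29, 5.67 and 5.32 CPM. In week 4 roots it was at 2.11, 2.22 and 2.32 CPM. The 2 root groups did not overlap. Their values rest on 105 to 148 counts per library at week 2 and 51 to 59 at week 4.

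In week 2 shoots BdiBd21-3.1G0313900 was at 6.53, 6.41 and 5.23 CPM. In week 4 shoots it was at 4.60, 8.94 and 5.72 CPM. The 2 shoot groups overlapped each other, and both overlapped week 2 roots. All week 4 root libraries were below every other library.

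BdiBd21-3.1G0313900 averaged 5.43 ± 0.212 CPM in week 2 roots and 2.22 ± 0.101 CPM in week 4 roots (SD, n = 3 each). This is a 2.45-fold lower level at week 4, with a log2 fold change of -1.29 (SE 0.24). In shoots the change was 0.08 (SE 0.23), and the root change minus the shoot change was -1.37 (SE 0.33). The difference between organs was -0.16 (SE 0.23) at week 2 and -1.53 (SE 0.24) at week 4, which is 2.89-fold lower in roots.

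BdiBd21-3.1G0313900 abuts BdiBd21-3.1G0313800, a gene without a name on the same strand, with 0 bases between them. BdiBd21-3.1G0313800 averaged 1.75 and 1.55 CPM in roots at weeks 2 and 4, and 1.37 and 0.525 CPM in shoots. Its week 4 root minus shoot log2 fold change was 1.56 (SE 0.38, edgeR adjusted p 0.00363), opposite in sign to that of BdiBd21-3.1G0313900. How reads across the shared border were assigned was not tested.

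A gene is called where its edgeR p, adjusted over all 26463 tested genes, is under 0.05. For the 3 genes such calls are a description, since the genes were selected on these values. In root against shoot at week 2, 2 of the 3 genes were called, where 56.1% of tested genes were called. BdiBd21-3.5G0170100 was called higher, as were 28.4% of tested genes, and BdiBd21-3.5G0057900 lower, as were 27.7%. At week 4 all 3 were called, against 60.9% of tested genes, with 1 higher (32.4% of tested genes) and 2 lower (28.5%). With age in roots 1 of 3 was called, against 18.8%, and BdiBd21-3.1G0313900 was the 1 called lower (6.35% of tested genes, with 12.4% higher). With age in shoots 1 of 3 was called, against 33.9%, and BdiBd21-3.5G0170100 was the 1 called lower (19.4%, with 14.5% higher). In the test of whether the age change differed between organs, 1 of 3 was called, against 8.52%. It was BdiBd21-3.1G0313900, in the lower direction (1.95%, with 6.56% higher). The median log2 fold changes of the 3 genes in this order were -0.16, -1.53, -0.59, 0.08 and -1.10. Over all tested genes they were 0.01, 0.04, 0.05, 0 and 0.11. Nothing is read from these shares.

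Several of these calls changed when 1 library was left out or the method was changed. The week 2 call of BdiBd21-3.5G0170100 was lost when week 2 root replicate 1 was left out (0.41), and likewise for week 2 shoot replicates 2 (0.53) and 3 (0.50). Its call with age in shoots was lost on leaving out week 2 shoot replicate 1 (-0.58) or week 4 shoot replicates 2 (-0.54) or 3 (-0.61). Its change with age in roots became a call with upper-quartile scaling, DESeq2 and limma-voom, and on leaving out replicate 3 of either root group or replicate 1 of week 4 shoots, at -0.62, -0.65 and -0.54. The change of BdiBd21-3.5G0057900 with age became a call in the fit of shoots alone. The interaction call of BdiBd21-3.1G0313900 was lost in 6 of 12 runs that left out 1 library, with values of -1.44 to -1.26: week 2 root replicate 2, week 4 root replicates 1 and 2, and each week 2 shoot library.

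**Figure D3:**
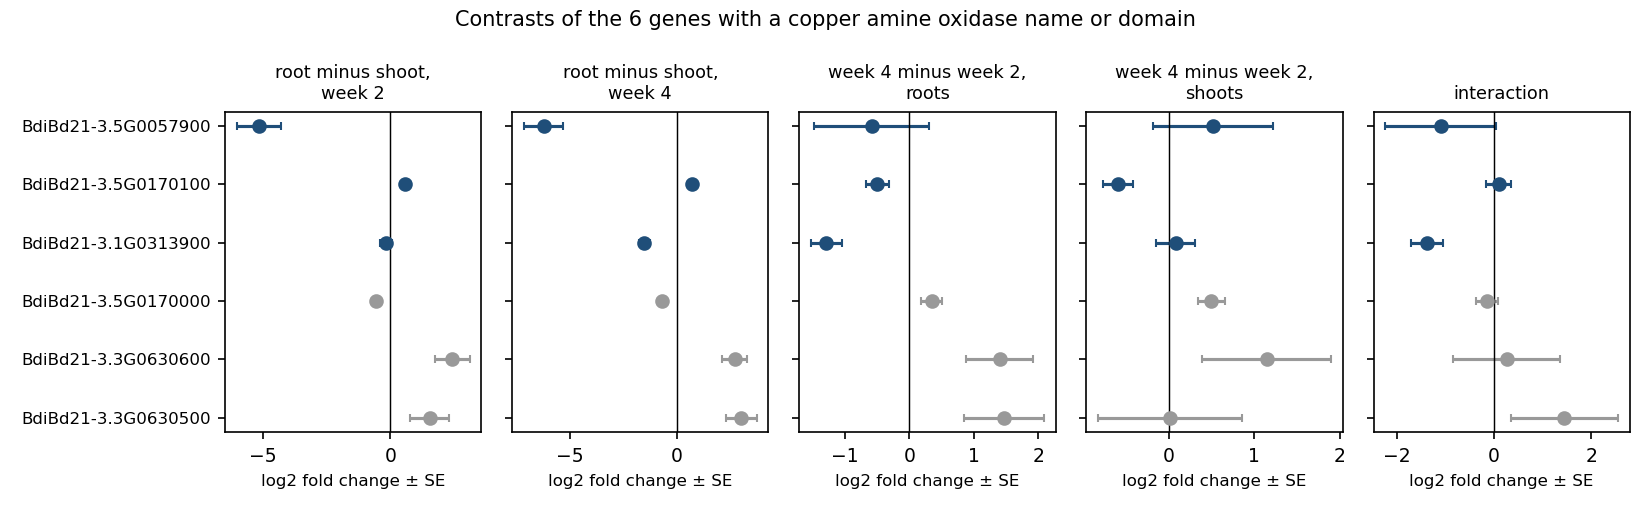
Log2 fold change with its SE for the 6 genes with a copper amine oxidase name or domain in 5 contrasts; blue marks the 3 genes described and grey the other 3, and the axes differ between panels. BdiBd21-3.5G0057900 has the largest root deficit, -5.14 and -6.24, and BdiBd21-3.1G0313900 has an age change of -1.29 in roots and 0.08 in shoots.

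The other 2 genes named as copper methylamine oxidases, BdiBd21-3.3G0630600 and BdiBd21-3.3G0630500, were close to the limit of detection. They lie on the minus strand of chromosome 3 at 49040087 to 49045330 and 49037668 to 49040086, with 0 bases between them. The first lists the N3 and enzyme domains and the second only the enzyme domain. They received 170 and 128 counts over the 12 libraries.

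BdiBd21-3.3G0630600 averaged 0.561 and 1.50 CPM in roots at weeks 2 and 4, and 0.0991 and 0.232 CPM in shoots. It had 5 to 45 counts per root library and 1 to 7 per shoot library. BdiBd21-3.3G0630500 averaged 0.406 and 1.13 CPM in roots and 0.138 and 0.134 CPM in shoots. It had 6 to 32 counts per root library and 0 to 5 per shoot library. At week 4 all root libraries were above all shoot libraries for both genes. Both reached the minimum count of 10 in roots alone, so no test of root against shoot is given for them and nothing is read from that order.

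Summed over the 5 genes named as copper or primary amine oxidases, the level was 35.3 ± 7.37 CPM per kb in week 2 roots and 25.4 ± 4.49 in week 4 roots. It was 55.2 ± 4.22 CPM per kb in week 2 shoots and 61.8 ± 3.68 in week 4 shoots (SD, n = 3 each). The lowest shoot library, at 51.6 CPM per kb, was above the highest root library, at 43.6.

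The make-up of that sum differed between organs. In roots BdiBd21-3.5G0170100 supplied 90.3% ± 0.641 of it at week 2 and 88.5% ± 2.97 at week 4, while BdiBd21-3.5G0057900 supplied 2.19% ± 2.58 and 2.35% ± 2.04 (SD, n = 3 each). Without week 2 root replicate 1 the former was 0.705%, and without week 4 root replicate 2 the latter was 1.28%. In shoots BdiBd21-3.5G0057900 supplied 56.9% ± 4.75 at week 2 and 72.9% ± 2.75 at week 4, and BdiBd21-3.5G0170100 supplied 38.7% ± 4.14 and 22.9% ± 4.05 (SD, n = 3 each). BdiBd21-3.1G0313900 held a mean of 3.31% to 5.91% in each group. In week 2 shoots BdiBd21-3.5G0057900 and BdiBd21-3.5G0170100 were at 31.6 and 21.3 CPM per kb, and in week 4 shoots at 45.1 and 14.1. How reads were counted in the 1151 bases that BdiBd21-3.5G0170100 shares with BdiBd21-3.5G0170000 is not stated. The level per length of BdiBd21-3.5G0170100, the sum and all these shares depend on it. The size of that effect, also on the order of the 2 genes in week 2 shoots, was not tested.

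**Figure D4:**
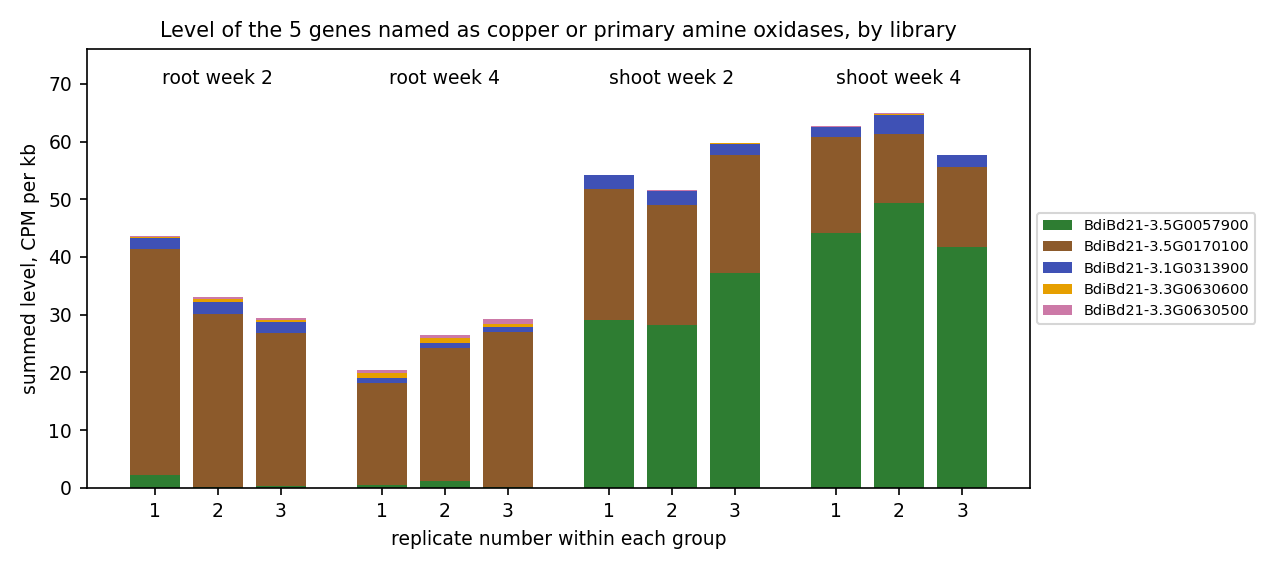
Summed level of the 5 genes named as copper or primary amine oxidases in each library, in CPM per kb, stacked by gene; each bar is 1 library. BdiBd21-3.5G0170100 makes up most of each root bar, and BdiBd21-3.5G0057900 makes up 53.6% to 75.9% of each shoot bar. These parts depend on how reads in the bases shared by BdiBd21-3.5G0170100 and BdiBd21-3.5G0170000 were counted, which is not stated.

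For each of the 3 genes, the most similar profiles were sought among 15022 other genes, as Pearson's r of log2(CPM + 1) over the 12 libraries. The libraries share 4 groups, so r mostly follows the group means, and it is given as a description. For BdiBd21-3.5G0057900 they were BdiBd21-3.2G0740100, an OTU domain-containing protein (r = 0.988), and 2 genes with no description, BdiBd21-3.3G0312800 (0.988) and BdiBd21-3.2G0087500 (0.987). In all, 1859 genes had r above 0.9. For BdiBd21-3.5G0170100 they were BdiBd21-3.1G0631800, named as hydroxyproline O-galactosyltransferase HPGT3 (0.978), and 2 subunits of mitochondrial NADH dehydrogenase, BdiBd21-3.3G0732200 and BdiBd21-3.1G0400900 (0.975 each), with 673 genes above 0.9. For BdiBd21-3.1G0313900, 4 genes were above 0.9, led by BdiBd21-3.5G0193200 of unknown function (0.938). Next were the serine/threonine kinase BdiBd21-3.1G0854500 (0.934) and the transcription factor bHLH130, BdiBd21-3.4G0469500 (0.923). BdiBd21-3.1G0313900 had 51 to 157 counts per library, and counting error lowers r at such counts. The numbers of genes above 0.9 are therefore not comparable between the 3 genes.

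Genes that make the substrates of these enzymes or act on their products were taken by keyword from the descriptions. Of 60 such genes, 55 passed the filter. In roots against shoots 25 were called higher and 17 lower at week 2, against 28.4% and 27.7% of all tested genes. At week 4 the numbers were 20 and 19, against 32.4% and 28.5%. These counts, and those of some lists below, include genes that passed the filter only through the organ where they were high. For such genes a call in root against shoot is partly set by the filter. With age 6 rose and 7 fell in roots, against 12.4% and 6.35% of tested genes, and 7 rose and 8 fell in shoots, against 14.5% and 19.4%.

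Polyamine oxidases are flavin enzymes that oxidise spermidine and spermine. All 6 were called in root against shoot at both ages, 2 higher and 4 lower, where 56.1% and 60.9% of tested genes were called. These 6 include BdiBd21-3.3G0287700, BdiBd21-3.3G0333300 and BdiBd21-3.2G0613600, which had few or no counts in either roots or shoots. Those genes passed the filter through the other organ, so nothing is read from the count of 6. BdiBd21-3.5G0338800, described as polyamine oxidase 4, averaged 232 and 143 CPM per kb in week 2 and week 4 roots and 29.8 and 11.4 in shoots, and was called higher in roots at both ages (edgeR adjusted p 3.84e-08 and 2.25e-08). Its neighbour BdiBd21-3.5G0338700, with the same description, averaged 64.2 and 71.6 CPM per kb in roots and 114 and 113 in shoots, and was called lower in roots (edgeR adjusted p 8.04e-04 and 0.00346). The sources do not say how reads matching both were counted.

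A further pair of polyamine oxidases, chosen after their values were seen, had few or no counts in one organ. BdiBd21-3.3G0333300 averaged 56.5 ± 4.01 and 39.8 ± 3.16 CPM in week 2 and week 4 roots (SD, n = 3 each), with 4 and 6 counts over the shoot groups. BdiBd21-3.3G0287700 had 0 counts in all 6 root libraries and averaged 98.8 ± 69.5 and 227 ± 159 CPM in week 2 and week 4 shoots (SD, n = 3 each). Against a floor of 3 counts over the root group it was at least 2263-fold higher in shoots at week 2 and at least 5644-fold at week 4. Its shoot libraries ranged from 19.9 to 384 CPM. No p-value is given for this pair, which was picked for this pattern, though both genes are counted among the 6 called above.

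Of 14 tested genes that make polyamines, 8 were called higher and 2 lower in roots at week 2, and 5 and 3 at week 4, beside 56.1% and 60.9% of tested genes called in either direction. The most abundant, the S-adenosylmethionine decarboxylase BdiBd21-3.5G0187900, ranged from 665 to 825 CPM per kb between group means. It was among those called higher in roots at week 2 (log2 fold change 0.31, SE 0.12, edgeR adjusted p 0.0412). That call was lost in 9 of 12 runs that left out 1 library and in 3 other alternatives. Arginine decarboxylase 1, BdiBd21-3.1G0664100, which starts a plant route to putrescine, averaged 75.9 and 77.0 CPM per kb in roots and 35.9 and 54.5 in shoots, called at week 2 (edgeR adjusted p 0.00355) and not at week 4 (0.107).

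Of 10 tested genes that make aromatic amines, 5 were called higher and 3 lower in roots at week 2, and 3 and 4 at week 4, beside 56.1% and 60.9% of tested genes called. Tyrosine/DOPA decarboxylase 3, BdiBd21-3.2G0654700, was at 122 and 74.4 CPM per kb in week 2 and week 4 roots, with 7 counts over week 2 shoots and 0 over week 4 shoots. The aromatic-L-amino-acid decarboxylase BdiBd21-3.3G0195766 averaged 21.4 ± 7.03 and 20.0 ± 19.2 CPM per kb in roots and 13.9 ± 2.25 and 66.2 ± 19.6 in shoots (SD, n = 3 each). Without its highest library the week 4 root mean was 9.11 CPM per kb. Its week 4 difference was called (edgeR adjusted p 0.0292), a call lost with no low-count filter, in the fit of the week 4 libraries alone, and on leaving out replicate 1 of either week 4 group or replicate 2 of week 4 roots.

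Aminoaldehydes are oxidised further by betaine aldehyde dehydrogenases. Of 3 tested, 2 were called higher in roots at each age, beside 28.4% and 32.4% of tested genes called higher. BdiBd21-3.5G0159500 averaged 52.7 and 49.8 CPM per kb in roots and 13.8 and 13.2 in shoots (edgeR adjusted p 1.23e-08 and 2.41e-08). BdiBd21-3.3G0475100 averaged 94.9 and 85.9 CPM per kb in roots and 79.3 and 62.9 in shoots (edgeR adjusted p 0.0245 and 8.32e-04). The week 2 call of the latter was lost without any 1 of 6 libraries, with adjusted p up to 0.142, and in a fit of the week 2 libraries with the replicate number as a block (edgeR adjusted p 0.0683). That fit called 1 of the 3 at week 2.

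Catalases remove hydrogen peroxide. Of 3 tested, 1 was called higher and 2 lower in roots at each age, beside 56.1% and 60.9% of tested genes called. Catalase isozyme 2, BdiBd21-3.3G0017400, averaged 187 and 359 CPM per kb in roots against 1502 and 1459 in shoots. Catalase-1, BdiBd21-3.1G1018400, averaged 11.7 and 71.7 CPM per kb in roots against 436 and 931 in shoots, and rose with age in roots by 2.62 on the log2 scale (SE 0.45, edgeR adjusted p 0.00376).

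Copper supply was represented by 19 tested transporters and chaperones, of which 7 were called higher and 6 lower in roots at each age, beside 56.1% and 60.9% of tested genes called. The chaperone ATX1, BdiBd21-3.1G0541200, averaged 199 and 235 CPM per kb in roots and 152 and 230 in shoots. A second gene described as ATX1, BdiBd21-3.3G0594700, ranged from 1.37 to 350 CPM between libraries, with SDs near or above the mean in 3 of the groups. Its calls at week 4 and with age in shoots were lost on leaving out single libraries.

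**Figure D5:**
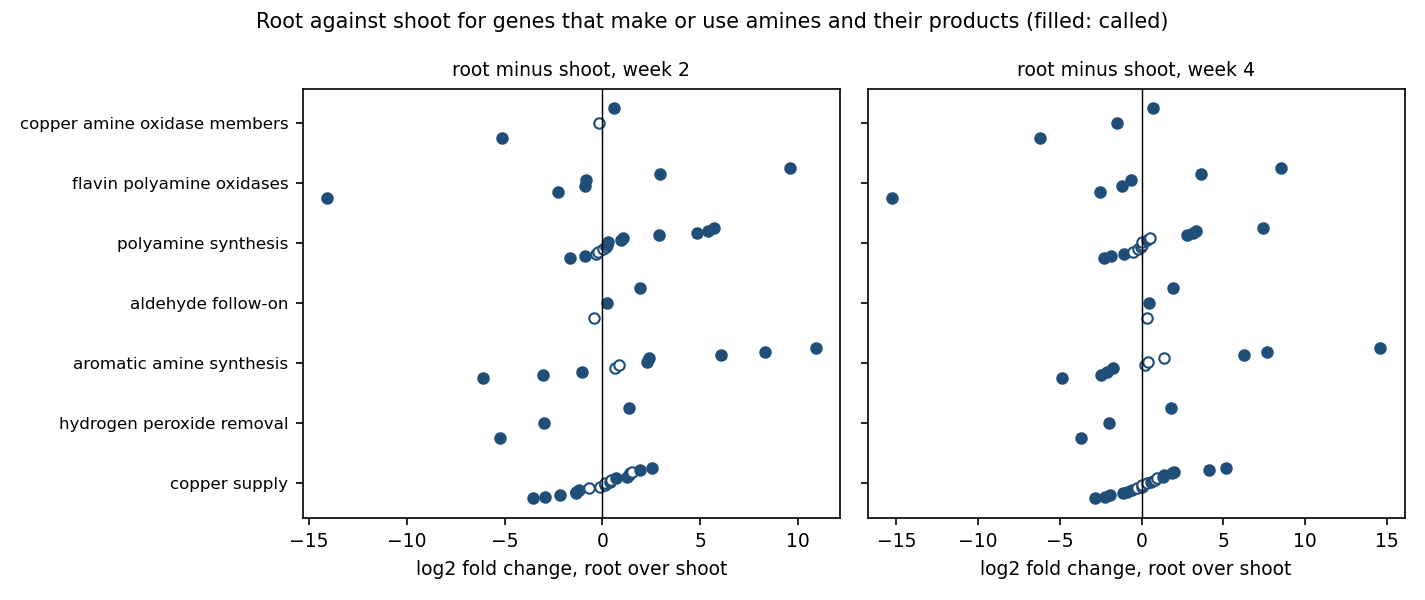
Log2 fold change of root over shoot at week 2 (left) and week 4 (right) for the 3 copper amine oxidase genes and for 6 lists of related genes; each point is 1 gene, and filled points were called. The point farthest left is BdiBd21-3.3G0287700 and the point farthest right at week 4 is BdiBd21-3.2G0654700, whose positions depend on the prior count because a group had 0 counts.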

How the data were processed

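The authors deposited raw read counts per gene for 12 libraries in 1 table, with positions, gene lengths and best-match names. Per the submitters' processing notes, HISAT2 2.0.5, featureCounts 1.5.0-p3 and HTSeq 0.6.1 were used, with no role stated. No source used here gives the build, the strand setting or the handling of reads matching several genes. Columns were matched to samples by tissue, week and replicate number in the titles.

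Analysis used edgeR 4.0.16 under R 4.3.3. Low genes were removed with filterByExpr (minimum count 10, minimum total 15), leaving 26463. CPM values are per 1e6 of TMM-scaled library size, and CPM per kb divides by the authors' gene length. A quasi-likelihood model with 1 mean for each group covered all 12 libraries, with p-values adjusted over all tested genes (Benjamini-Hochberg) and calls at an adjusted p under 0.05. SE is the absolute log2 fold change over the square root of F. Where a group had 0 counts, folds used 3 counts in that group as the floor, which covers counting error only.

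Deviations from the group means of same-numbered week 2 roots and shoots had r of 0.107 to 0.250 over the 3 pairs. Different numbers gave -0.207 to 0.133, which overlaps that range. Week 2 roots and week 4 shoots, from different plants, gave 0.0993 to 0.255 for the same number. The labels do not state a pairing, so whether the week 2 replicate numbers pair the samples cannot be told from these values. The fit was tested on simulated data. A first pass mark for recovered genes was missed, and a lower mark by size of change was then set with the fit unchanged.

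The 3 genes and all lists were chosen with earlier results of these data known. Named genes are the 3, all others with such a name or domain, the 2 most abundant per length of each list and the 3 most similar profiles to each. Alternatives were other scalings, no filter, DESeq2 1.42.0, limma-voom (limma 3.58.1), the compared libraries alone, a replicate block and leaving out each library.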

Additional observations from a re-analysis of the deposited data

Results flagged for a closer look

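The change with age of BdiBd21-3.1G0313900 had different values in the 2 organs. Its week 4 minus week 2 log2 fold change was -1.29 in roots and 0.08 in shoots, an interaction of -1.37 (SE 0.33). The edgeR call on this interaction was lost in 6 of 12 runs that left out 1 library, with adjusted p up to 0.0617. The gene was selected on values of these libraries, so this is a description, and the reason for the difference was not tested.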

How the results depend on the processing

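The direction of every called difference of the 3 genes held under each alternative run. Upper-quartile scaling, DESeq2 and limma-voom called the fall of BdiBd21-3.5G0170100 with age in roots, at -0.54, -0.53 and -0.50, which makes 2 genes called there under each. DESeq2 left BdiBd21-3.5G0057900 with no adjusted p in any contrast. In root against shoot it therefore called 1 of the 3 genes at week 2 and 2 at week 4. It called 15 related genes in the interaction against 7. The fit of shoots alone called BdiBd21-3.5G0057900 with age at 0.50, making 2.

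Leaving out each library in turn gave 0.41 to 0.70 for BdiBd21-3.5G0170100 at week 2, -0.65 to -0.33 with age in roots and -0.76 to -0.54 with age in shoots. The interaction of BdiBd21-3.1G0313900 ranged from -1.57 to -1.05. Called genes among the 3 numbered 1 to 2 at week 2, 1 to 2 with age in roots, 0 to 1 with age in shoots and 0 to 1 in the interaction. Related genes called numbered 5 to 14 with age in roots and 3 to 9 in the interaction. Levels in week 2 shoots ranged from 20.96 to 22.8 CPM per kb for BdiBd21-3.5G0170100 and from 2.23 to 2.53 for BdiBd21-3.1G0313900. Those of BdiBd21-3.5G0057900 ranged from 0.214 to 1.25 CPM per kb in week 2 roots and from 0.278 to 0.810 in week 4 roots, where 1 library carried much of each mean. The cause of these changes was not tested.

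With the replicate block over all libraries the week 2 root minus shoot value of BdiBd21-3.5G0057900 was -5.35. With the block over the week 2 libraries alone, added after the data were seen, it was -5.53, and 38 related genes were called against 42. Neither block changed a call of the 3 genes. For the other group pairs at least 1 same-numbered correlation was under 0.1. For week 2 roots and week 4 shoots the lowest was 0.0993, close to the 0.107 of week 2 roots and shoots. These values therefore do not settle where the numbers pair the samples. Low counts limit BdiBd21-3.5G0057900 in roots, with 8 to 141 per library.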
